A study of Mus musculus with 11 samples.

Results

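Interferon-stimulated genes are the antiviral and regulatory genes that a cell switches on when interferon reaches its receptor. The set described here holds 48 mouse genes, taken by symbol: the Ifit, Oas, Ifi200, Gbp and Slfn families, the Irf and Stat regulators, the RNA sensors and other effectors. All 48 have a row among the 39017 rows of the deposited table of gene counts, and 41 had enough counts to be tested. They were compared between Kdm6a conditional knockout microglia (cKO, 5 libraries, cKO2 and cKO4 to cKO7) and wild-type microglia (WT, 6 libraries, numbered WT8, WT9, WT13, then WT15 to WT17). Kdm6a is an X-linked gene for a histone demethylase. All 11 libraries came from spinal cords of healthy female C57BL/6 mice whose microglia carried a tagged ribosome (RiboTag) switched on by Cre from the Tmem119 gene, so that RNA bound to microglial ribosomes could be pulled down. The series title gives the recombinase as the tamoxifen-dependent Cre/ERT2, and no age or tamoxifen dosing is given in the sources used here. The labels do not state that the libraries are from different animals, so each p-value here is set against library-to-library spread, which may be technical.

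Type I interferon binds the receptor pair Ifnar1 and Ifnar2, whose kinases Jak1 and Tyk2 phosphorylate STAT proteins. Phosphorylated STATs, Stat2 among them, join Irf9 and bind a short DNA element, the interferon-stimulated response element, in front of the responding genes. Several products feed back on the pathway: Irf7 drives further interferon transcription, and Usp18 dampens the receptor. In the healthy nervous system microglia keep a low tonic level of these genes, and a subset of microglia raises them in ageing, infection and injury.

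The libraries held 28620584 to 40943004 counts. Kdm6a itself had 6.31 ± 1.53 CPM (counts divided by library size and scaled by TMM factors) in cKO (SD, n = 5) and 9.59 ± 1.87 CPM in WT (SD, n = 6), with overlapping ranges and a log2 fold change of -0.61 (SE 0.25) that did not pass edgeR's quasi-likelihood test (adjusted p = 0.193), and which exons were deleted is not stated in the labels. Of 12 microglial markers, 11 were tested, Aif1 had no counts in any library, and the summed level was 46545 to 48855 CPM in cKO against 33756 to 43640 CPM in WT. A total of 6 of the 11 were higher in cKO and none was lower at an adjusted p under 0.05, with a median log2 fold change of 0.30. Of all 16025 genes tested, 1.86% were higher. The number of markers higher was 4 when scaled by library totals instead of TMM factors and 1 with endothelial markers as a covariate. Over all genes the number higher fell too, from 298 to 203 with library totals and to 116 with the covariate. Because these are bulk pulldowns, fewer cells of a type and less RNA per cell cannot be told apart.

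In cKO, 5 of the 41 tested members fell and none rose: Ifit2, Ifit3, Ifit3b, the transcription factor Irf7 and the RNA sensor Dhx58 (LGP2). That is 12.2% of the members tested, where 2.43% of all 16025 genes tested were lower in cKO and 1.86% were higher at the same threshold (edgeR adjusted p under 0.05). The members and gene lists were chosen with earlier results of these data known. In a further list of interferon-stimulated genes outside the set, 37 were tested, none passed, and the median log2 fold change was -0.14. At an unadjusted p under 0.05, 19 members (46.3%) were lower and 0 higher, against 10.2% and 8.15% of all genes. The fold change was negative for 36 of the 41 and positive for 5, and the median log2 fold change was -0.46, against -0.01 over all genes. Every cKO library lay below every WT library for 5 members (12.2%), Ifit2, Ifit3, Irf7, Dhx58 and Rsad2, where this held for 1.99% of all genes. The opposite arrangement held for 0 members and for 2.17% of all genes. The number that fell was 9 with DESeq2, 9 when scaled by library totals instead and 3 with limma voom. It was 3 without cKO4, 3 without WT16 and 8 without WT17. The share of all genes that were lower moved as well, to 4.26% with DESeq2, 3.75% with library totals and 1.62% with limma voom. That share was 1.62% without cKO4, 1.71% without WT16 and 2.12% without WT17.

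The promoters of 4 members are shown first, since Ifit3 and Ifit3b are the called members whose windows match the response element, and Ifit1 and Isg15 match it and were not called. Each is the RefSeq window on GRCm38.p6 from 250 bases before to 50 bases after the gene's start, written 5′ to 3′ on the gene's strand. Capitals mark matches to the core of the response element, GAAANNGAAA, searched on both strands with overlaps kept. The windows are chr19:34583279-34583578 for Ifit3, chr19:34607707-34608006 for Ifit3b and chr19:34640639-34640938 for Ifit1, all on the plus strand, and chr4:156200769-156201068 on the minus strand for Isg15.
Ifit3: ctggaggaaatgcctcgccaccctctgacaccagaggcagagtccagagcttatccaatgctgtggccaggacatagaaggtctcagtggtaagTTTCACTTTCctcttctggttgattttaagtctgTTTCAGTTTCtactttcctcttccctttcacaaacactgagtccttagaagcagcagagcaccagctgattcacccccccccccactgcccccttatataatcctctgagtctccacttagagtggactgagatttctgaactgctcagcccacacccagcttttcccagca
Ifit3b: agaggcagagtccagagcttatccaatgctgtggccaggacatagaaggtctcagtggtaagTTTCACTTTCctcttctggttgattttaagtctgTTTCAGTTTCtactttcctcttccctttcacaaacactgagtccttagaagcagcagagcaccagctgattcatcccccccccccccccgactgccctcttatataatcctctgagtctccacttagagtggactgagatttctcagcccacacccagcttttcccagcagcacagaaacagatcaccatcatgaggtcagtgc
Ifit1: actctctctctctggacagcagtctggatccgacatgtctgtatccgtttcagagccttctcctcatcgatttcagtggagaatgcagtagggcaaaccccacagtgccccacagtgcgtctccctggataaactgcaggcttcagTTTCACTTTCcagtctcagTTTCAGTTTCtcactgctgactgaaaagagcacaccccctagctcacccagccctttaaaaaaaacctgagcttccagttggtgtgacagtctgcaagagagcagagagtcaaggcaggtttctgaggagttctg
Isg15: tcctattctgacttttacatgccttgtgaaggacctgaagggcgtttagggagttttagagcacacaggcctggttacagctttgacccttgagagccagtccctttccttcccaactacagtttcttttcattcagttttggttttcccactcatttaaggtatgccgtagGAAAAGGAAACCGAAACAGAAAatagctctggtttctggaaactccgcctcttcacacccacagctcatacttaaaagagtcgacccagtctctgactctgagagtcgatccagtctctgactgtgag

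Ifit3 had matches beginning at -156 and -122 from the start site and Ifit3b at -188 and -154, both on the opposite strand. Both windows are near copies of each other: a run of 169 identical bases begins at -218 in Ifit3 and at -250 in Ifit3b, and it holds both matches. Ifit1 had matches at -104 and -85, also on the opposite strand, and Isg15 had 3 overlapping matches at -78, -72 and -66 on its own strand. A window was found for 37 of the 48 members, and 20 of them (54.1%) held at least 1 match, against 3.99% of the 27025 genes with a window. At least 2 matches were found for 8 members (21.6%), against 0.266% of all genes. Of the 4 members that fell and have a window, 2 held the core, Ifit3 and Ifit3b, and 2 did not, Ifit2 and Irf7. A match is a description of these letters and does not show a bound site.

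**Figure D1:**
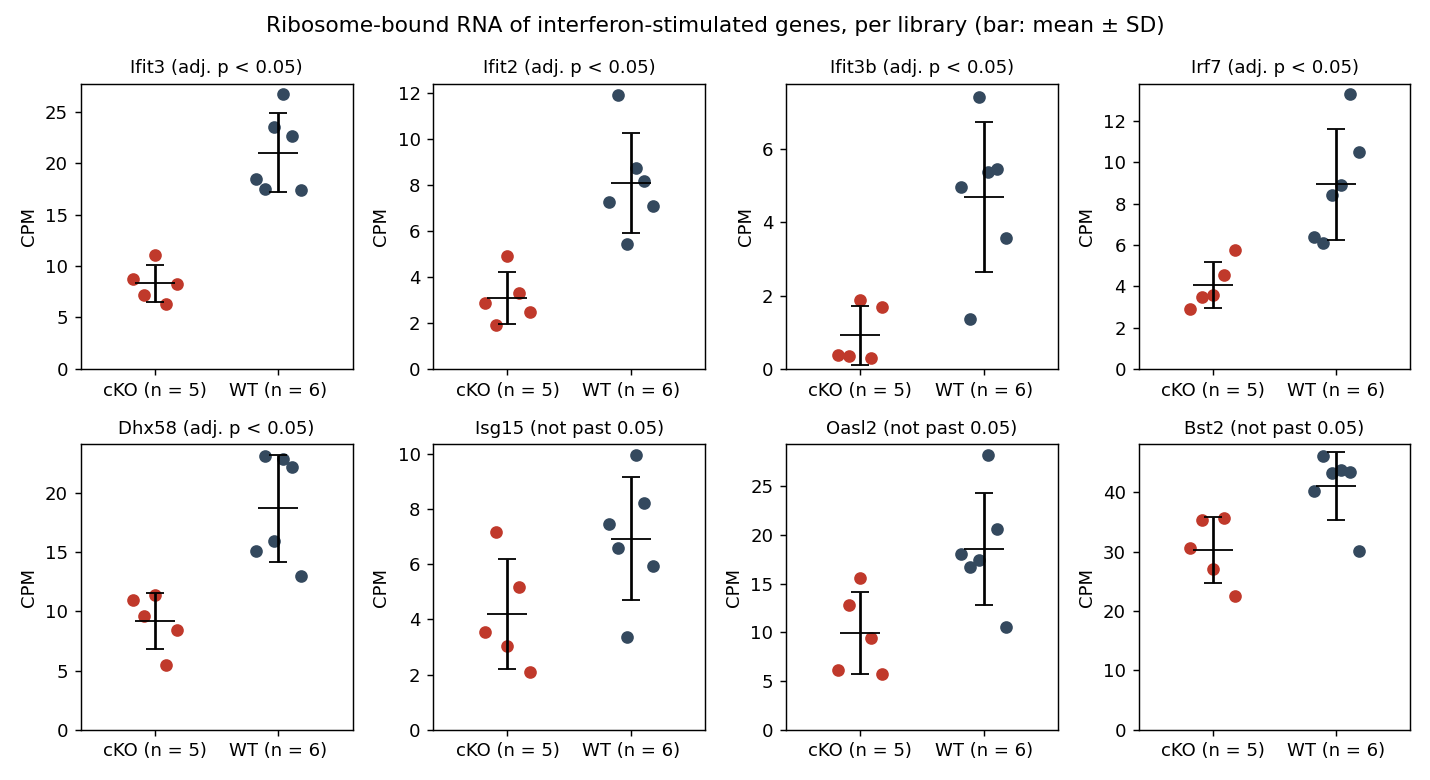
CPM of the 5 members that fell and of other members in each library, cKO at left and WT at right, with the mean and SD of each group. Ifit3 sits between 6.29 and 11.1 CPM in the 5 cKO libraries, all below the 17.4 to 26.7 CPM of the WT libraries, while Ifit3b overlaps at WT9.

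The Ifit family holds 4 members, of which 3 fell, with a median log2 fold change of -1.36. Ifit3 is ENSMUSG00000074896 (chromosome 19, 34583531 to 34588731, plus strand, GRCm38). It had 8.73 CPM in cKO2, 7.20 in cKO4, 11.1 in cKO5, 6.29 in cKO6 and 8.28 in cKO7, against a lowest, median and highest of 17.4, 20.5 and 26.7 CPM in WT. No cKO library reached the lowest WT library. The means were 8.32 ± 1.82 CPM in cKO (SD, n = 5) and 21.0 ± 3.82 CPM in WT (SD, n = 6), and the log2 fold change was -1.34 (SE 0.20, edgeR adjusted p = 0.000164), or 2.53-fold lower.

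Ifit2 (chromosome 19, 34550694 to 34576419, plus strand), which binds AU-rich double-stranded RNA, had 2.87 CPM in cKO2, 1.90 in cKO4, 4.90 in cKO5, 3.29 in cKO6 and 2.50 in cKO7, against a lowest, median and highest of 5.45, 7.71 and 11.9 CPM in WT. The groups did not overlap, with cKO5 the highest cKO library and WT13 the lowest WT library. Its log2 fold change was -1.39 (SE 0.31, edgeR adjusted p = 0.00982).

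Ifit3b (chromosome 19, 34607970 to 34613401, plus strand), a close copy of Ifit3, had 0.374 CPM in cKO2, 0.346 in cKO4, 1.89 in cKO5, 0.292 in cKO6 and 1.70 in cKO7, against 1.37, 5.17 and 7.42 CPM as lowest, median and highest in WT. WT9 lay below cKO5 and cKO7, so the groups overlapped. The log2 fold change was -2.34 (SE 0.59, edgeR adjusted p = 0.0236), and it lost its call without cKO2, cKO4, cKO6 or WT16, with limma voom, with endothelial markers as a covariate, and without WT13, WT16 and WT17 together. Of all 50-base stretches in the transcripts of Ifit3, 51.2% also occur in Ifit3b, and 44.5% of those of Ifit3b occur in Ifit3. The split of reads between these genes is therefore uncertain. Summing the 2 rows, an alternative chosen after seeing the data, gave a log2 fold change of -1.48 (edgeR adjusted p = 7.51e-05) and 4 members lower of 40 tested. Of all genes, 2.42% were lower in that alternative.

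Ifit1, which binds RNA with an unmethylated cap, did not pass the test: its log2 fold change was -0.20 (SE 0.96), and it had 0.374 to 2.13 CPM in cKO against 0 to 2.61 CPM in WT. With levels this low, its interval of -2.19 to 1.79 includes changes as large as those of Ifit2 and Ifit3.

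Among the 4 Irf and Stat regulators 1 fell. Irf7 (chromosome 7, 141262706 to 141266481, minus strand), the transcription factor that amplifies interferon production, had 2.90 CPM in cKO2, 3.48 in cKO4, 3.60 in cKO5, 4.53 in cKO6 and 5.76 in cKO7, against 6.10, 8.67 and 13.3 CPM as lowest, median and highest in WT. All cKO libraries lay below all WT libraries, although cKO7 and WT9 were close. The log2 fold change was -1.14 (SE 0.29, edgeR adjusted p = 0.0236), and it lost its call without cKO2, cKO4, cKO5 or WT16, with limma voom, with the endothelial covariate, and without WT13, WT16 and WT17 together (-0.82, edgeR adjusted p = 0.306). Irf9 and Stat2, the parts of the complex that binds the response element, were at -0.08 (SE 0.10) and -0.36 (SE 0.13), and Irf1, which responds to type II interferon as well, was at -0.46 (SE 0.15). None of these 3 passed (edgeR adjusted p = 0.780, 0.110 and 0.0952). Irf9 had 82.5 to 98.7 CPM in cKO and 74.7 to 111.6 CPM in WT, so the cKO range lay inside the WT range.

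Isg15, a ubiquitin-like modifier, had 3.55 CPM in cKO2, 7.17 in cKO4, 3.04 in cKO5, 5.19 in cKO6 and 2.10 in cKO7, against 3.37, 7.04 and 9.96 CPM as lowest, median and highest in WT. The groups overlapped through cKO4 and WT13, and the log2 fold change was -0.72 (SE 0.34, edgeR adjusted p = 0.268). Usp18, which removes Isg15 from proteins, was at -0.65 (SE 0.56), and Herc6, the ligase that attaches it in the mouse, at 0.02 (SE 0.42).

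Among the RNA and DNA sensors, 1 of 6 fell. Dhx58 (chromosome 11, 100694884 to 100704271, minus strand), a helicase that regulates the other RNA sensors, had 10.9 CPM in cKO2, 9.62 in cKO4, 11.4 in cKO5, 5.45 in cKO6 and 8.45 in cKO7, against 13, 19.1 and 23.1 CPM as lowest, median and highest in WT. Every cKO library lay below every WT library, and the log2 fold change was -1.03 (SE 0.22, edgeR adjusted p = 0.00864). Its exons share 4.31% of their bases with an antisense gene, Dhx58os, which had 174 counts over all libraries against 5480 for Dhx58. Irf7 shares 1.19% of its exon bases with the antisense gene Phrf1, which had 36199 counts against 2576 for Irf7. Since the strand setting of the counting is not given, reads from such shared bases cannot be told apart. The sensor genes Ddx58, which encodes RIG-I, and Ifih1, which encodes MDA5, were at -0.33 (SE 0.14) and 0.17 (SE 0.26), and the kinase gene Eif2ak2 and the RNA editor Adar at -0.22 (SE 0.20) and -0.22 (SE 0.10). Zbp1, a sensor of left-handed nucleic acid, had the most negative fold change of the set, -2.44, with an SE of 0.90 and an edgeR adjusted p of 0.157. It had 2.03 CPM in cKO2, 0.173 in cKO4, 2.52 in cKO5, 0.146 in cKO6 and 0 in cKO7, against 2.10, 5.33 and 7.89 CPM as lowest, median and highest in WT, and cKO5 lay above WT17.

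**Figure D2:**
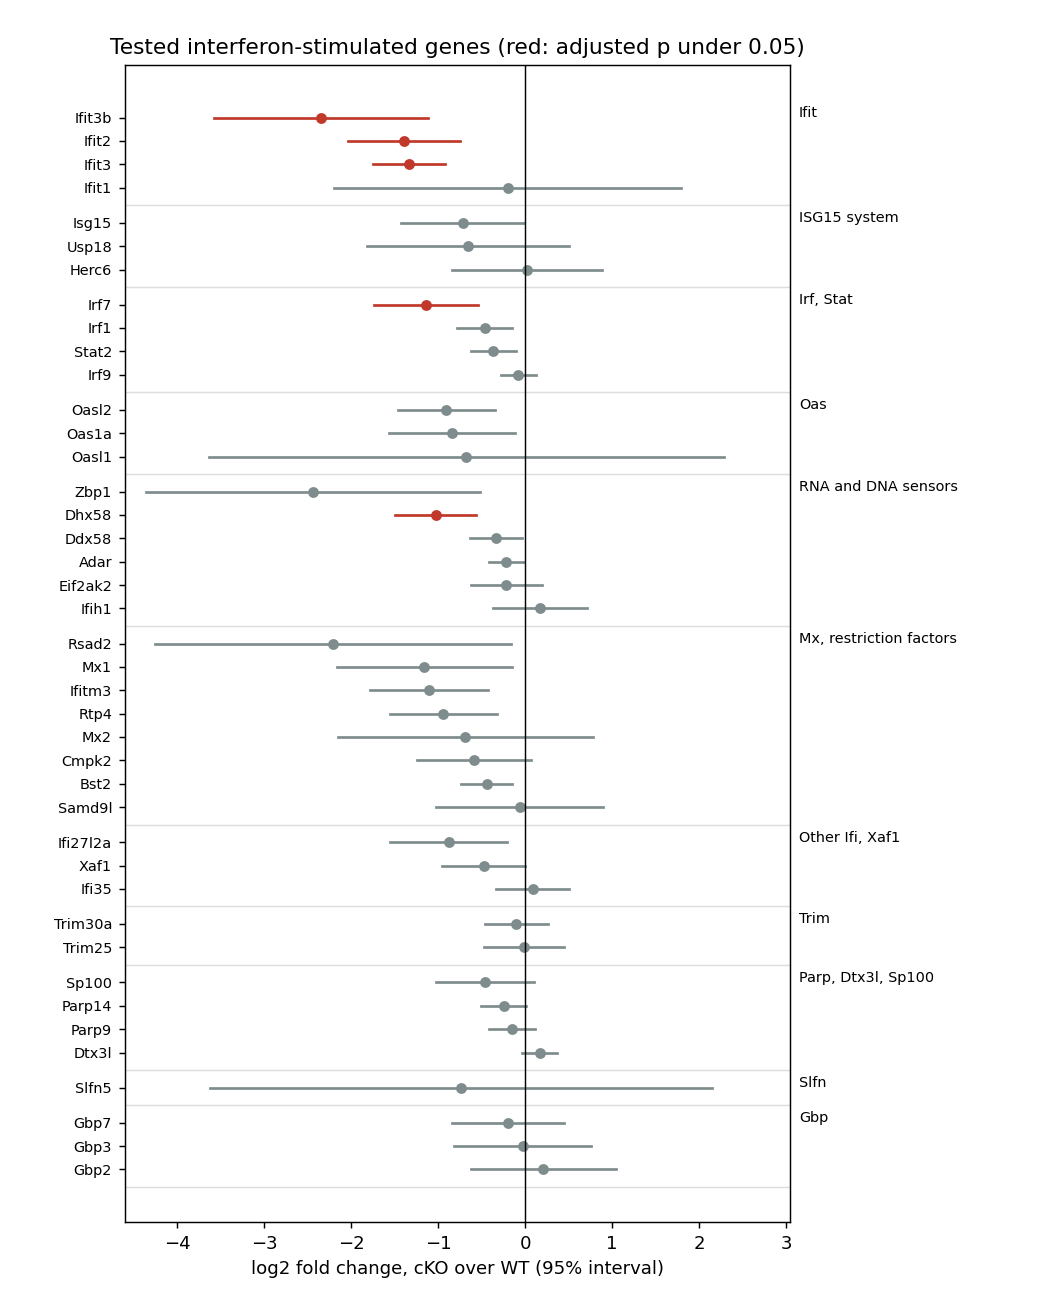
Log2 fold change of each tested member, cKO over WT, with its 95% interval, grouped by subfamily, with called members marked. The called members are Ifit2, Ifit3, Ifit3b, Irf7 and Dhx58, and 36 of the 41 points lie below 0.

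The oligoadenylate synthetase family, whose products activate an antiviral RNase, had 3 tested members of 5 and none passed. Oasl2 had 6.11 CPM in cKO2, 12.8 in cKO4, 15.6 in cKO5, 9.43 in cKO6 and 5.73 in cKO7, against 10.6, 17.7 and 28.2 CPM as lowest, median and highest in WT. The groups overlapped at WT17, and the log2 fold change of -0.91 (SE 0.27) missed the threshold (edgeR adjusted p = 0.0591). Oasl2 passed in 7 of 21 alternatives: with DESeq2, with library totals, with no filter on low counts, with the endothelial covariate, without cKO5, without WT17, and without WT13, WT16 and WT17 together (adjusted p from 0.0216 to 0.150 over the 21). Oas1a was at -0.84 (SE 0.35), with 57.6% of the 50-base stretches of its transcripts also present elsewhere, chiefly in Oas1g, and Oasl1 at -0.68 (SE 1.43).

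Of the 8 restriction factors and related effectors, all had negative fold changes (-2.20 to -0.06), none passed, and the median was -0.81. Bst2, or tetherin, which holds budding virus at the cell surface, had 30.6 CPM in cKO2, 35.3 in cKO4, 27.1 in cKO5, 35.7 in cKO6 and 22.6 in cKO7, against 30.0, 43.3 and 46.1 CPM as lowest, median and highest in WT. The groups overlapped because of WT17, and the log2 fold change was -0.44 (SE 0.14, edgeR adjusted p = 0.0837). Bst2 passed in 3 of 21 alternatives, without WT17, with DESeq2 and with library totals (adjusted p from 0.0325 to 0.201 over the 21). Ifitm3, which blocks viral entry at membranes, was at -1.11 (SE 0.32, edgeR adjusted p = 0.0666), Rtp4 at -0.94 (SE 0.29) and the GTPase Mx1 at -1.16 (SE 0.48). Rsad2, or viperin, was detected at 0 to 0.686 CPM in cKO and at 1.03 to 2.38 CPM in WT, with no overlap and a log2 fold change of -2.20, but the low counts gave an SE of 0.99 and an edgeR adjusted p of 0.233. Mx2, Cmpk2 and Samd9l were at -0.69, -0.59 and -0.06.

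No member of the remaining subfamilies passed. Ifi35 was at 0.09 (SE 0.20, edgeR adjusted p = 0.887), with 28.2 CPM in cKO2, 29.1 in cKO4, 27.6 in cKO5, 36.2 in cKO6 and 30.6 in cKO7, against 14.8, 30.8 and 39.5 CPM as lowest, median and highest in WT. Xaf1 and Ifi27l2a were at -0.47 and -0.88. The ubiquitin ligase gene Trim30a was at -0.10 (SE 0.17, edgeR adjusted p = 0.844) and Trim25 at -0.01. Trim30a had 48.3 CPM in cKO2, 50.8 in cKO4, 60.8 in cKO5, 49.5 in cKO6 and 40.6 in cKO7, against 33.7, 55.3 and 74.2 CPM as lowest, median and highest in WT.

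Dtx3l, a ubiquitin ligase that works with Parp9, had 100.2 CPM in cKO2, 105.9 in cKO4, 105.2 in cKO5, 93.4 in cKO6 and 86.2 in cKO7, against 77.1, 89.1 and 97.4 CPM as lowest, median and highest in WT. The groups overlapped, and the log2 fold change was 0.17 (SE 0.10, edgeR adjusted p = 0.383). Its exons overlap those of Parp9, whose value was -0.15, and Parp14 and the nuclear-body protein gene Sp100 were at -0.24 and -0.46. Gbp2, an interferon-induced GTPase, was at 0.21 (SE 0.40, edgeR adjusted p = 0.860). One library decides its sign: it had 24.7 CPM in cKO5 and 2.43 to 7.52 CPM in the other cKO libraries, against 6.63, 8.34 and 11.2 CPM as lowest, median and highest in WT, and without cKO5 the log2 fold change was -0.47. Gbp3 and Gbp7 were at -0.03 and -0.20.

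Slfn5, the tested Schlafen gene, was at -0.74 with an SE of 1.39 (edgeR adjusted p = 0.859). It had 0.0624 CPM in cKO2, 0 in cKO4, 0.560 in cKO5, 0 in cKO6 and 0.624 in cKO7, against 0.171, 0.330 and 0.778 CPM as lowest, median and highest in WT, so the groups overlapped. The members too low to test were Oas2 with 77 counts in all libraries together, Oas3 with 128, Ifi44 with 60, Ifi204 with 80, Ifi207 with 82, Slfn2 with 68 and Slfn8 with 0. Oas3 had 0 counts in every cKO library and 70, 30, 26 and 2 counts in WT13, WT9, WT15 and WT16. Oas2 leaned the other way, with 12 and 48 counts in cKO2 and cKO7, 17 in WT15 and 0 in the other libraries. Counts this low were not tested. Of the 20 nearest coding neighbours of Slfn8, 4 also had no counts in any library, all of them among the 7 Schlafen genes there. Of all 39017 rows, 17296 had no counts. Whether Slfn8 was unexpressed or its reads were not counted cannot be told from these values.

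**Figure D3:**
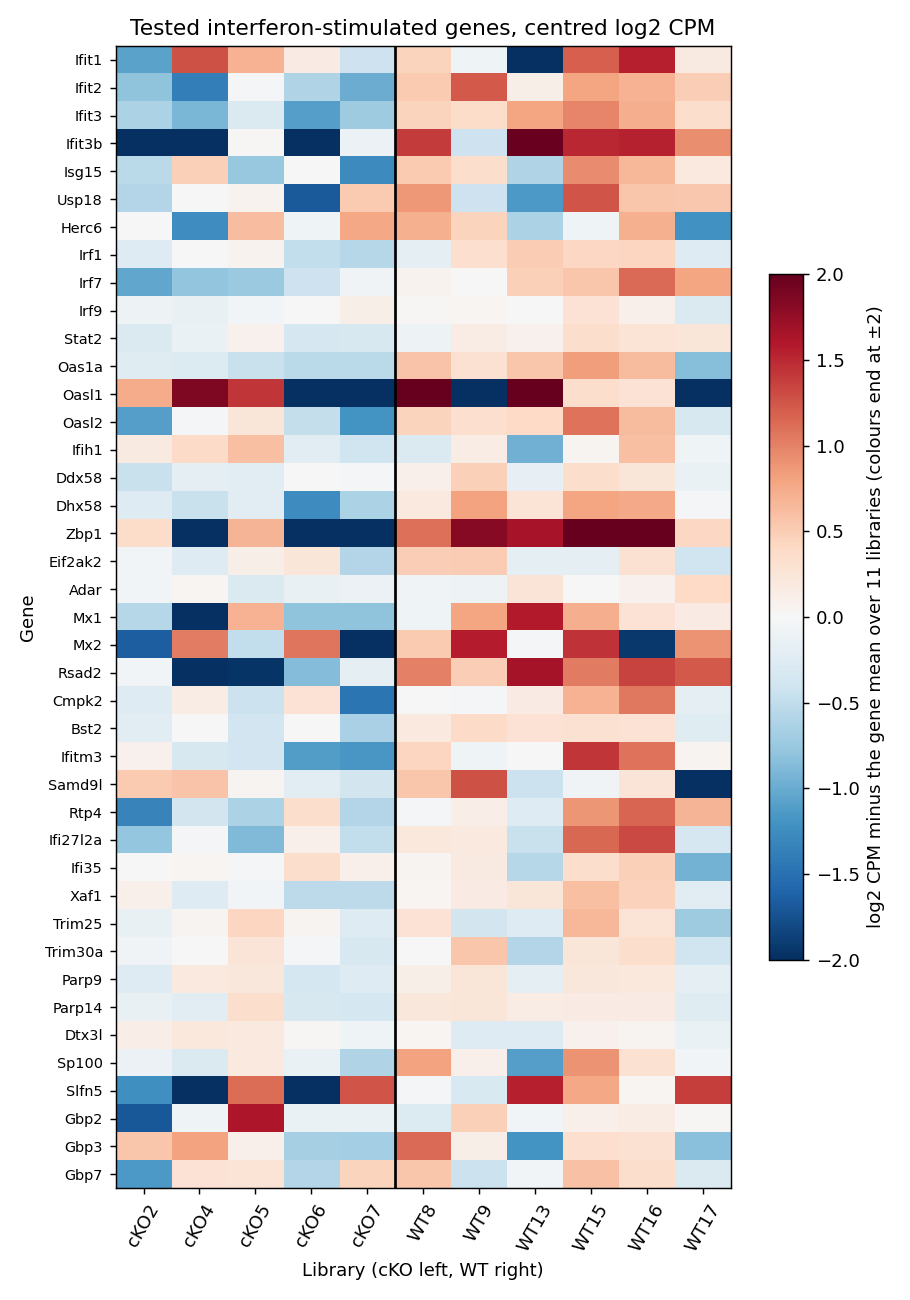
Log2 CPM of the members by library, centred on each gene's mean over all libraries, cKO columns left of WT columns. Ifit2, Ifit3, Irf7 and Dhx58 are lower in all 5 cKO columns than in any WT column, and WT13 and WT17 are the WT columns with the most low members.

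The members are split here by level. The share of all genes called at each level was not computed, so the split is not read as a trait of these members. The 9 members averaging 5 or more on the log2 CPM scale ranged from -0.46 to 0.17 with a median of -0.22, and none passed. The 32 below that level ranged from -2.44 to 0.21 with a median of -0.68, and all 5 called members were among them. Of the 36 members that did not pass, 14 had a 95% interval wholly below 0, 19 had intervals that stay above a 2-fold decrease, and 17 had intervals that reach it. The exons of 18 members overlap those of another annotated gene, by at most 16.8% of their bases (Adar and Ifi35). Per kilobase of exon, Bst2 was the most abundant member, at 33.5 CPM per kb in cKO and 45.5 CPM per kb in WT, followed by Ifitm3 at 20.3 and 43.7 CPM per kb, and Slfn5 was the least abundant tested member, at 0.0394 and 0.0662 CPM per kb.

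Members differed between libraries of the same genotype as well. The mean log2 CPM over the 41 tested members was 2.76 in cKO2, 2.84 in cKO4, 3.21 in cKO5, 2.66 in cKO6 and 2.59 in cKO7, against 3.55 in WT8, 3.39 in WT9, 3.22 in WT13, 3.81 in WT15, 3.70 in WT16 and 3.06 in WT17. The groups overlapped, with cKO5 above WT17. Among cKO libraries cKO5 was highest for 16 of the 41 members and cKO7 lowest for 18, and among WT libraries WT15 was highest for 14, WT17 lowest for 16 and WT13 lowest for 13.

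Blood vessel cells also express several of these genes, so their markers are given beside the members. Of 16 endothelial markers 15 were tested, Cldn5 had no counts, 2 were lower in cKO (Pecam1 at -0.58 and Kdr at -1.30) and none was higher, and the summed level was 103.1 to 118.6 CPM in cKO against 117.2 to 301.7 CPM in WT. Their mean log2 CPM was 0.76 ± 0.41 in cKO (SD, n = 5) and 1.76 ± 1.00 in WT (SD, n = 6), a difference of -1.0 (two-sided exact permutation p = 0.0563, smallest possible 0.00216); it was -1.19 without WT8 (exact permutation p = 0.0317) and -1.20 without WT15 (exact permutation p = 0.0238), and nearest 0 without WT13, at -0.68 (exact permutation p = 0.0873). The p was between 0.0238 and 0.133 over the 11 omissions of 1 library. WT13 and WT17 had the highest endothelial levels, 3.33 and 2.47, and the lowest member levels among WT libraries. WT15 and WT8 had the lowest endothelial levels among WT libraries, 0.75 and 0.81, and member levels of 3.81 and 3.55. Without WT13, WT16 and WT17 the endothelial median log2 fold change was -0.11, and 5 of 43 tested members were lower, with a median of -0.52. Of all genes tested there, 2.21% were lower. WT16 was left out and WT9 kept although both had an endothelial level of 1.58, so the choice does not follow endothelial level alone. In WT13, WT16 and WT17 the neuron marker Nefh had 937, 723 and 1241 CPM, against 306, 428 and 322 in WT8, WT9 and WT15. The microglial marker Csf1r had 7284, 7305 and 7165 CPM, against 8723, 8444 and 9156. Another neuron marker, Snap25, overlapped, with 88.7, 112.7 and 100.8 CPM against 98.4, 101.5 and 92.9. Whether this bears on the members was not tested. Of the 5 members lower without WT13, WT16 and WT17, 3 (Ifit2, Ifit3 and Dhx58) were among those of the full comparison. With endothelial level as a covariate the members' median was -0.60 and 7 were lower, where 2.03% of all genes were lower. Of these 7, 3 were among those of the full comparison. Ifit3b and Irf7 were lost, and Ifitm3, Sp100, Oasl2 and Ifi27l2a were gained. Of 7 tested pericyte markers 1 was lower (Cspg4 at -1.09) and none was higher, with 22.9 to 45.4 CPM summed in cKO and 31.4 to 143.1 CPM in WT. The 9 monocyte and neutrophil markers summed to 5.01 to 12.6 CPM in cKO and 4.40 to 22.1 CPM in WT. Fn1 and Vcan had counts in all 11 libraries. Fn1 was at 3.46 to 10.5 CPM in cKO and 2.75 to 18.7 CPM in WT. Vcan was at 0.125 to 3.46 CPM in cKO and 1.10 to 10.5 CPM in WT. Ccr2 had counts in 6 libraries, cKO5 and every WT library but WT13. Its means were 0.098 CPM in cKO and 0.722 CPM in WT, at a log2 fold change of -2.86 (SE 1.65, edgeR adjusted p = 0.383). Ly6c2 and Chil3 were at 0. No marker of astrocytes, oligodendrocytes, neurons, fibroblasts, border macrophages, monocytes and neutrophils or lymphocytes passed, with medians of -0.06, -0.0004, -0.38, 0.05, 0.27, -1.03 and -0.30 over 10, 9, 12, 8, 2, 3 and 2 tested genes. The part of endothelial cells, of pericytes and of these other cell types in the members' result was not tested. The endothelial level came from the same libraries and had a lower mean in cKO, so the covariate cannot separate it from genotype.

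**Figure D4:**
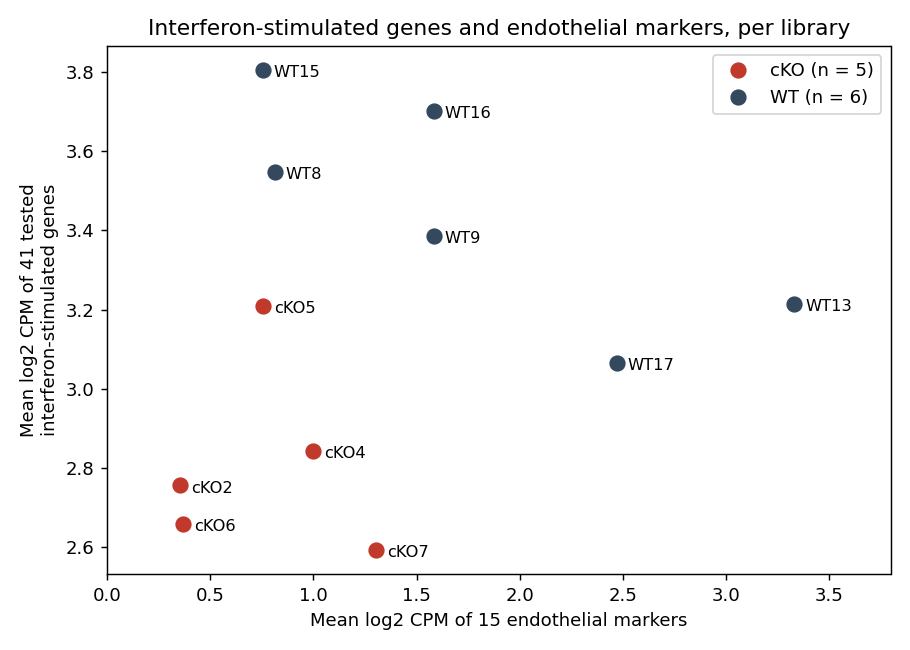
Mean log2 CPM of the tested members against that of the tested endothelial markers, 1 point per library, cKO and WT in different colours. The WT libraries with the highest endothelial levels, WT13 and WT17, have the lowest member levels among WT.

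The machinery upstream of the response was taken from a list of 32 receptors, kinases, nucleic acid sensors and inhibitors, of which 29 were tested and Ifnb1 and Ifng had no counts. A total of 4 fell (13.8%) and 2 rose (6.9%), against 2.43% and 1.86% of all genes tested, with a median log2 fold change of -0.04. Tlr7, an endosomal receptor for single-stranded RNA, had 278.8 CPM in cKO2, 325.7 in cKO4, 417.6 in cKO5, 432.0 in cKO6 and 403.3 in cKO7, against 136.3, 224.2 and 245.2 CPM as lowest, median and highest in WT. All cKO libraries lay above all WT libraries, at a log2 fold change of 0.85 (SE 0.15, edgeR adjusted p = 0.00496). Tlr9, the endosomal receptor for unmethylated DNA, moved the other way: 90.9 to 110.6 CPM in cKO against 122.0 to 187.0 CPM in WT, with no overlap and a log2 fold change of -0.66 (SE 0.11, edgeR adjusted p = 0.000599).

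Samhd1, a nucleotide hydrolase that restrains interferon induction, had 78.0 to 104.0 CPM in cKO and 115.5 to 139.5 CPM in WT, at -0.44 (SE 0.09, edgeR adjusted p = 0.00644) and with no overlap. The receptor kinase gene Tyk2 was at -0.38 (SE 0.10, edgeR adjusted p = 0.0407), with 54.0 to 66.0 CPM in cKO and 68.7 to 96.1 CPM in WT. The phosphatase gene Ptpn6 was at -0.35 (SE 0.10, edgeR adjusted p = 0.0401) and the type II interferon receptor chain Ifngr1 at 0.31 (SE 0.09, edgeR adjusted p = 0.0459). Tyk2, Ptpn6 and Ifngr1 lost their calls in 11, 9 and 11 of 21 alternatives, among them several that leave out 1 library, and Tyk2 and Ptpn6 share 8.07% and 6.96% of their exon bases with another annotated gene. The libraries whose omission cost the call were cKO2, cKO4, cKO5, cKO6, WT9, WT13, WT16 and WT17 for Tyk2, cKO4, cKO5, cKO6, cKO7, WT8, WT9, WT15 and WT16 for Ptpn6, and cKO4, cKO5, cKO6, cKO7, WT13, WT16 and WT17 for Ifngr1.

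A further list of 50 interferon-stimulated genes outside the set had 37 tested. None passed edgeR's test in either direction. At an unadjusted p under 0.05, 7 were lower (18.9%) and 1 was higher, against 10.2% and 8.15% of all genes, and the median log2 fold change was -0.14.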

How the data were processed

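Ribosome-bound RNA of spinal cord microglia was sequenced in 5 cKO and 6 WT libraries. Per the submitters' processing notes the tools were bcl2fastq 2.17, FastQC and Trimmomatic, on mm10; for the aligner, counter and strand setting, none is given in the sources used here. The authors deposited raw counts per Ensembl gene, of which 37607 of 39017 matched a symbol. In each library 73.5 to 83.9% of counts from 1 to 200 were even, as would arise if both mates of a pair were counted, which makes fragments fewer than counts.

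In R 4.3.3, edgeR 4.0.16's filterByExpr (minimum count 10, total 15) left 16025 genes, and TMM factors set the scale. The main test was the robust quasi-likelihood F test, genotype only, with Benjamini-Hochberg adjustment over all genes at 0.05. The SE is the log2 fold change divided by the square root of F, and log2 CPM used a prior count of 2. DESeq2 1.42.0, limma 3.58.1 voom, other scalings and filters, halved counts, an endothelial covariate and left-out libraries were alternatives. The script was tested on simulated data. No pair of libraries of 1 genotype agreed within sampling noise (lowest chi-square 17.7 per gene, WT8 and WT15).

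The members, gene lists and tests were chosen with earlier results of these data known. Named with full values are members past the threshold and, in subfamilies with none, the most abundant one. Other members are given by fold change or summed counts, and genes of the upstream list only if they passed. CPM values of Zbp1, Ifit1, Irf9 and Rsad2 and counts per library of Oas2 and Oas3 are added, chosen after their values were seen. Genes of the further interferon list are given as counts only. Exon coordinates are GENCODE M21 (GRCm38), and promoters are RefSeq GRCm38.p6.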

Additional observations from a re-analysis of the deposited data

Results flagged for a closer look

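In 4 of the 86 groups of libraries tested, 1 library lay farther from its group than the 95% limit of Dixon's test allows. By chance about 1 group in 20, or 4.3 here, would do so. Ifit1 in WT13 was low (gap over range 0.702), at a log2 CPM of -4.09 with the other WT libraries between -0.22 and 1.42. WT13 had 0 counts of Ifit1, so -4.09 is the floor set by the prior count, and the gap depends on it. In CPM, WT13 was at 0 and the other WT libraries at 0.798 to 2.61. WT17 was low for Oas1a (0.683), at 1.11 with the others between 2.26 and 2.79. It was also low for Bst2 (0.686), at 4.91 with the others between 5.33 and 5.53, and for Parp14 (0.794), at 5.93 with the others between 6.32 and 6.42. None of these genes passed edgeR's test in the main comparison. Bst2 passed without WT17 (edgeR adjusted p = 0.0327), and with all libraries under DESeq2 (adjusted p = 0.0479) and with library totals (edgeR adjusted p = 0.0325).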

How the results depend on the processing

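No paired analysis was possible because cKO and WT libraries share no replicate number. Over all genes 687 passed the threshold, 1162 with DESeq2, 442 with the endothelial covariate, and 437 to 945 with 1 library left out; the cause was not tested. Members lower in cKO numbered 5, against 9 with DESeq2, 9 with library totals, 3 with limma voom and 3 to 8 with 1 library left out. Of all genes tested, 2.43% were lower, against 4.26% with DESeq2, 3.75% with library totals and 1.62% with limma voom. With 1 library left out that share was 1.62 to 3.52%. Members higher in cKO numbered 0 under every alternative run. The members' median was -0.46, and -0.60 to -0.37 over the alternatives. The endothelial difference of -1.0 was -1.20 to -0.68 with 1 library left out. Library totals moved the median of all genes to -0.10. Ifit2, Ifit3, Dhx58, Tlr7, Tlr9 and Samhd1 kept their calls in 21 of 21 alternatives. Members whose sign turned had not passed: Gbp2 was -0.19 with limma voom and -0.47 to 0.46 with 1 library left out; Ifi35 was -0.11 without WT13, WT16 and WT17, -0.24 with the endothelial covariate and -0.045 to 0.20 with 1 library left out; Slfn5 was 0.0090 with the endothelial covariate; and Trim30a was -0.20 to 0.011 with 1 library left out. With halved counts 39 members were tested and the same 5 were lower, where 2.62% of all genes were lower. In the main comparison 7 members were too low to test, and 17 of the intervals of members that did not pass reach a 2-fold decrease.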
